A study of Mus musculus with 12 samples.

Results

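Death receptors of the TNF receptor family carry a cytoplasmic death domain, and the data described here concern the ligands, receptors and proximal signalling proteins of the Fas and TRAIL pathways in progenitor CD8+ T cells of mice with and without T cell deletion of UTX, a histone H3K27 demethylase encoded by *Kdm6a*. The 9 genes were chosen by name, as *Fasl*, *Tnfsf10*, *Fas*, *Tnfrsf10b*, *Fadd*, *Tradd*, *Casp8*, *Cflar* and *Ripk1*, and all 9 were found among the 25860 genes of the RNA-seq table. The peaks considered were the 16 of 23932 listed ATAC-seq peaks whose assigned gene is among these. Each assay (RNA-seq or ATAC-seq) had 3 libraries of either genotype, made from CD8+ T_prog_ cells that had been sorted out of the pancreatic lymph node. The genotypes were *NOD-TCR 8.3 WT* and, for mice with the deletion, *NOD-TCR 8.3 UTX TCD*. Mice of both groups are on the nonobese diabetic (NOD) background and carry the NY8.3 transgenic T cell receptor, which recognizes the β cell antigen IGRP. UTX TCD mice have loxP-flanked *Utx* (*Kdm6a*) alleles that are deleted in T cells by Cre under the *Lck* promoter, and the WT controls lack Cre. Only females were studied, no treatment is named, and the age of the mice behind these libraries is not given in the sources used here. According to the sample labels, the sorted cells were Ly108 positive and CXCR6 negative, whereas the methods describe them as Ly108 positive and CD39 negative. The methods count 3 biological replicates per genotype for ATAC-seq, and a figure legend of the paper gives 3 per group for both assays. The limma p-values below set the difference between genotypes against the spread between libraries of a genotype, estimated with help from the other genes.

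When Fas ligand or TRAIL (encoded by *Tnfsf10*) binds its receptor, the adaptor FADD is drawn to the death domain and brings caspase 8 together for activation. c-FLIP, the product of *Cflar*, resembles caspase 8 but lacks its protease activity and limits its activation, while TRADD and RIPK1 act mainly below the TNF receptors, where RIPK1 can direct cells to survival, apoptosis or necroptosis. In T cells, Fas is known for removing activated cells after a response, and Fas ligand is a means by which cytotoxic T cells kill their targets.

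The deposited RNA-seq value of a gene is its read count divided by a size factor of the library, called the normalized count here. The targeted gene *Kdm6a* had normalized counts of 28365, 28949 and 29172 in WT replicates 1, 2 and 3 and of 24158, 24792 and 24579 in UTX TCD replicates 1, 2 and 3, so every UTX TCD library lay below every WT library. The *Kdm6a* log2 fold change was only -0.23 (adjusted p = 0.00114 from limma), and a count over the whole gene cannot show whether the targeted exons were lost. The libraries held between 61512402 and 193568919 counted reads, with UTX TCD replicate 1 the shallowest. The 14459 genes whose mean reached 10, all 9 members among them, entered a limma test of log2(normalized count + 1). This scale understates the log2 fold change of genes with low counts. A gene was called at a Benjamini-Hochberg adjusted p under 0.05 with an absolute log2 fold change over 0.5, always as UTX TCD over WT.

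None of the 9 genes was called by limma, edgeR or DESeq2, against 17.6% of all genes tested, and 6 of them had an unadjusted p under 0.05 in limma, against 49.1% of all genes tested. At an adjusted p under 0.05 with no limit on the fold, 5 of 9 passed, against 40.7% of all genes tested. Of these, *Tnfsf10*, *Tnfrsf10b* and *Casp8* were higher in UTX TCD cells, or 3 of 9 against 20.2% of all genes, and *Fas* and *Fadd* were lower, or 2 of 9 against 20.5%. In 6 of the 9 genes the values of the genotypes did not overlap, against 51.9% of all genes tested. The median log2 fold change of the 9 genes was -0.02, beside -0.0002 over all genes tested. The largest of the 5 differences was 38.0% of the WT mean. In bulk libraries, fewer cells of a type and less RNA per cell cannot be told apart.

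**Figure D1:**
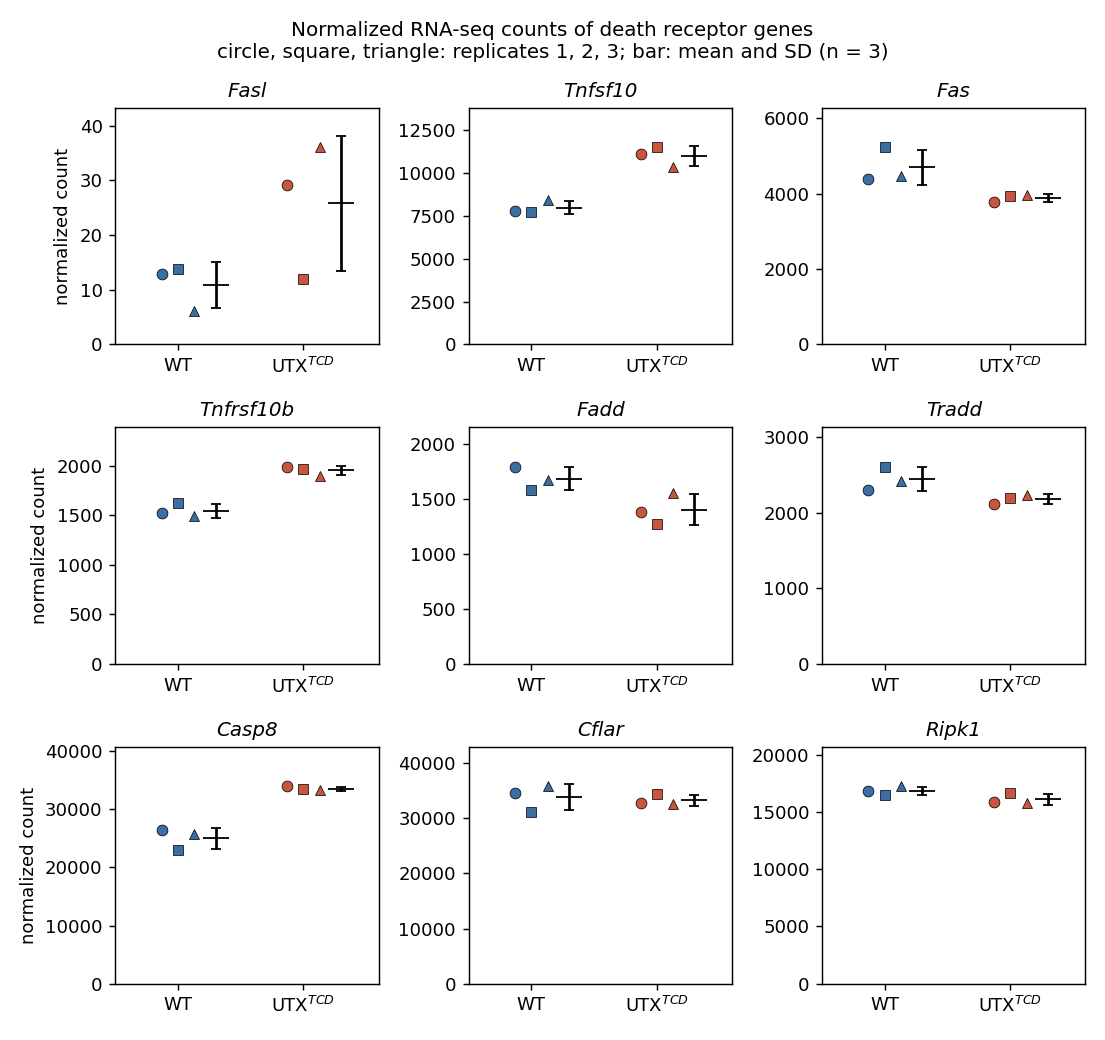
Normalized RNA-seq count (vertical axis, from 0) of each of the 9 genes in every WT (blue) and UTX TCD (red) library, with the mean and SD (*n* = 3) beside the points. *Tnfsf10*, *Tnfrsf10b* and *Casp8* were higher and *Fas*, *Fadd* and *Tradd* lower in all 3 UTX TCD libraries, whereas the libraries of the genotypes overlapped for *Fasl*, *Cflar* and *Ripk1*.

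Among the ligands, *Tnfsf10* (chromosome 3 of GRCm38, the mm10 build, from 27317077 to 27339665) encodes TRAIL. Its normalized counts were 7793, 7718 and 8420.3 in WT replicates 1, 2 and 3 and 11123, 11527 and 10387 in UTX TCD replicates 1, 2 and 3. The groups did not overlap, and the lowest UTX TCD library, replicate 3, was well above the highest WT library, also replicate 3. *Tnfsf10* was higher by 38.0% (log2 fold change 0.46, SE 0.05, adjusted p = 0.000213 from limma), just under the limit of 0.5. It was called without WT replicate 3 (0.504), without UTX TCD replicate 3 (0.506) and after scaling all libraries to an equal sum (0.53).

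*Fasl* (chromosome 1 from 161780691 to 161788495), which encodes Fas ligand, was barely counted in these cells. Its normalized counts were 12.9, 13.8 and 6.10 in WT replicates 1, 2 and 3, from 13, 14 and 8 reads. In UTX TCD replicates 1, 2 and 3 they were 29.2, 12.01 and 36.1, from 13, 15 and 49 reads. UTX TCD replicates 1 and 3 were above all WT libraries, but replicate 2 was among them, so the groups overlapped. The log2 fold change of 1.11 had an SE of 0.50 and a 95% interval from -0.02 to 2.23 (adjusted p = 0.107 from limma), so the test showed no difference but did not exclude a large one. UTX TCD replicates 2 and 3, which differed in *Fasl*, had 175462433 and 187275082 counted reads, and an effect of depth was not tested. The result rested on single libraries, since the log2 fold change was 1.56 (adjusted p = 0.0371 from limma, and so called) without UTX TCD replicate 2 and 0.77 (adjusted p = 0.287) without WT replicate 3. Over all alternatives its adjusted p ranged from 0.0371 to 0.287.

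The receptors of these ligands differed in opposite directions. *Fas* (chromosome 19 from 34290647 to 34327775) encodes the receptor of Fas ligand and had normalized counts of 4393, 5239 and 4475 in WT replicates 1, 2 and 3 and of 3779, 3927 and 3969 in UTX TCD replicates 1, 2 and 3. All UTX TCD libraries were lower than all WT libraries, and WT replicate 2 stood above the others. The *Fas* mean fell by 17.2%, and the log2 fold change was -0.27 with a 95% interval from -0.43 to -0.11 (adjusted p = 0.0153 from limma). Without WT replicate 2 the log2 fold change was -0.19 (adjusted p = 0.0211). With libraries scaled to equal sums it was -0.21 and did not pass the test (adjusted p = 0.0628), while over all alternatives the adjusted p ranged from 0.00268 to 0.0628.

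*Tnfrsf10b* (chromosome 14 from 69767472 to 69784411) encodes the mouse death receptor of TRAIL. Its normalized counts were 1519.6, 1628 and 1494 in WT replicates 1, 2 and 3 and 1991, 1967 and 1899 in UTX TCD replicates 1, 2 and 3. The UTX TCD libraries were all higher than the WT libraries and spread little among themselves. *Tnfrsf10b* was 26.2% higher in UTX TCD cells (log2 fold change 0.34, SE 0.07, adjusted p = 0.00331 from limma), and it passed the test under all 15 alternatives. Ligand and receptor of the TRAIL pair were thus both higher in the 3 UTX TCD libraries.

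Of the adaptors, only *Fadd* passed the test. *Fadd* (chromosome 7 from 144578323 to 144582441), the adaptor shared by Fas and the TRAIL receptor, had normalized counts of 1797, 1589 and 1674 in WT replicates 1, 2 and 3 and of 1388, 1271 and 1554 in UTX TCD replicates 1, 2 and 3. The groups did not overlap, but UTX TCD replicate 3 came close to WT replicate 2. Its mean fell by 16.7% (log2 fold change -0.27, SE 0.09, adjusted p = 0.041 from limma). This test was not passed without WT replicate 1 (log2 fold change -0.22, adjusted p = 0.151), WT replicate 3 (-0.27, 0.0862), UTX TCD replicate 1 (-0.26, 0.0877) or UTX TCD replicate 2 (-0.20, 0.154), nor with libraries scaled to equal sums (-0.20, 0.109). Over all alternatives the adjusted p of *Fadd* ranged from 0.0132 to 0.154.

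*Tradd* (chromosome 8 from 105258575 to 105264594), the adaptor of TNF receptor 1, had normalized counts of 2301, 2607 and 2418 in WT replicates 1, 2 and 3 and of 2109.9, 2199.7 and 2239 in UTX TCD replicates 1, 2 and 3. Here too all UTX TCD libraries were below all WT libraries, and WT replicate 2 was the highest. The log2 fold change of -0.16 (SE 0.07) did not pass the test (adjusted p = 0.0818 from limma). It was -0.098 (adjusted p = 0.29 from limma) with libraries scaled to equal sums.

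*Casp8* (chromosome 1 from 58795233 to 58847503), which encodes the initiator protease of the pathway, had normalized counts of 26369.5, 22951 and 25774 in WT replicates 1, 2 and 3 and of 33955, 33417 and 33293 in UTX TCD replicates 1, 2 and 3. The UTX TCD libraries were nearly alike and all above the WT libraries, of which replicate 2 was the lowest. *Casp8* was thus higher by 34.1%, and the log2 fold change was 0.43 with a 95% interval from 0.30 to 0.55 (adjusted p = 0.00035 from limma). Its log2 fold change stayed between 0.36 and 0.49 and passed the test under all 15 alternatives.

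*Cflar*, the gene of the inhibitor c-FLIP, lies near *Casp8* on chromosome 1 (58711311 to 58758884), with 36348 bases and the long noncoding RNA *Gm39646* between them. Its normalized counts were 34473, 31180.0 and 35774 in WT replicates 1, 2 and 3 and 32690.4, 34421 and 32537 in UTX TCD replicates 1, 2 and 3. The genotypes overlapped, and WT replicate 2 was the lowest library. The log2 fold change was -0.02 with a 95% interval from -0.15 to 0.10 (adjusted p = 0.768 from limma), and its sign turned with libraries scaled to equal sums (0.04) and without WT replicate 3 (0.02).

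The count ratio of *Cflar* to *Casp8* within a library does not depend on how libraries are scaled. It was 1.31, 1.36 and 1.39 in WT replicates 1, 2 and 3 and 0.963, 1.03 and 0.977 in UTX TCD replicates 1, 2 and 3. All WT libraries had more *Cflar* than *Casp8* counts, whereas the UTX TCD libraries had about as many of each. These counts are not divided by exon length, which is 8444 bp for *Cflar* and 2893 bp for *Casp8*. Per kb, *Casp8* was above *Cflar* in both genotypes, so the ratio shows a change between genotypes and not which gene had more RNA. The WT mean was 1.35 ± 0.0408 and the UTX TCD mean 0.99 ± 0.0354 (SD, *n* = 3), which differ by -0.45 in log2. A two-sided exact permutation test gave p = 0.1, the smallest that 3 libraries against 3 allow.

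*Ripk1* (chromosome 13 from 34002225 to 34035170), the kinase that joins these pathways with necroptosis, had normalized counts of 16797, 16500.3 and 17233 in WT replicates 1, 2 and 3 and of 15847, 16673 and 15767 in UTX TCD replicates 1, 2 and 3. UTX TCD replicate 2 fell within the range of the WT libraries. The log2 fold change was -0.07 with a 95% interval from -0.16 to 0.03 (adjusted p = 0.242 from limma). With libraries scaled to equal sums it was -0.0034 (adjusted p = 0.946 from limma). RefSeq places *Serpinb6a* on the opposite strand across part of *Ripk1*, and because the strand setting of the read counting is not stated, reads of this pair may have been mixed. *Serpinb6a* reached at most 2389 normalized counts in a WT library and at least 2609 in every UTX TCD library. The other 8 genes overlap no gene in RefSeq.

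Levels of the genes could be compared with each other once divided by the length of their RefSeq exons. In WT cells, *Casp8* had the highest level at 8652 ± 631 normalized counts per kb (SD, *n* = 3), followed by *Cflar* at 4004 ± 280.4 and *Ripk1* at 3481 ± 76.1. *Fas* came next at 2611 ± 259, then *Tradd* at 1763 ± 112 and *Tnfsf10* at 1614 ± 78.0, whose ranges overlapped. *Fadd* (586 ± 36.4) and *Tnfrsf10b* (487 ± 22.4) were low, and *Fasl* (5.65 ± 2.18) was far below the rest. In UTX TCD cells the first 3 genes kept their order, with *Casp8* at 11599 ± 121, *Cflar* at 3934 ± 124 and *Ripk1* at 3326 ± 104 per kb. *Tnfsf10* (2227 ± 117) came next there, level with *Fas* (2161 ± 55.4), as their ranges overlapped, and above *Tradd* (1576 ± 47.9). *Tnfrsf10b* (614 ± 15.0) ranked above *Fadd* (488 ± 49.5) in UTX TCD cells, the reverse of their order in WT cells. The receptor *Fas* was therefore present at a far higher level per kb than its ligand in both genotypes. These levels depend on the RefSeq exons, as the annotation behind the counts is not stated.

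Over the 6 libraries, the genes whose log2 values followed those of *Fas* most closely, out of 11693 with a mean of at least 100, were *Eri1* (Pearson's r = 0.998), *Pnrc1* (0.997), *Lyar* (0.996), *St6galnac3* (0.996) and *Pgap1* (0.996). Part of each r comes from the difference between genotypes, which all 6 libraries share. *Pnrc1*, for example, had normalized counts of 22325, 27153 and 22842 in WT replicates 1, 2 and 3 and of 19552, 20092 and 20092 in UTX TCD replicates 1, 2 and 3. That such genes were highest in WT replicate 2 follows from their choice by likeness to *Fas*, and among all genes tested 36.3% had their highest WT value there. The progenitor marker *Il7r* also stood out in this library, at 79127 normalized counts against 38077 and 37105 in WT replicates 1 and 3. Among the 7 other members with such a mean, *Tradd* was the most like *Fas* (r = 0.979) and *Casp8* the least (r = -0.963).

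The count table was then examined for markers of the sorted cells and of other cells. The summed normalized counts of 6 T cell identity genes ranged from 785463 to 837282 in WT libraries and from 718019 to 810579 in UTX TCD libraries, with *Cd8a* the most abundant. The 5 progenitor markers, led by *Tcf7*, summed to between 497703 and 559697 in WT and between 487398 and 513052 in UTX TCD libraries. No gene of either list was called by limma, but at any fold 5 of the 6 identity genes passed the test at an adjusted p under 0.05. These were *Cd2* (log2 fold change -0.49), *Cd8b1* (-0.37), *Cd3d* (-0.28) and *Cd3g* (-0.26), which were lower, and *Cd3e* (0.17), which was higher. The progenitor marker *Myb* also passed (0.48, adjusted p = 0.0401). These differences were about as large as those of the death receptor genes. Of the 3 sort gate genes, *Slamf6* was the most abundant, *Entpd1* was at most 29.6 in any library, and the list summed to 36986 to 43745 over all libraries. *Cxcr6* RNA was present although the labels describe CXCR6-negative cells, with normalized counts of 12757, 9619 and 13724 in WT replicates 1, 2 and 3 and 5286, 5994 and 5695 in UTX TCD replicates 1, 2 and 3. It was called lower (log2 fold change -1.07, adjusted p = 0.000131 from limma).

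Markers of other lineages were found at various levels. The 6 B cell genes, of which 4 were tested, summed to 2957, 2442 and 2805 in WT replicates 1, 2 and 3 and to 1226, 1083 and 1008 in UTX TCD replicates 1, 2 and 3. *Cd79b* was the most abundant, with at least 1930 normalized counts in every WT library, and was called lower (log2 fold change -1.98), *Ms4a1* was called higher (1.72), and the defining gene *Pax5* was at most 11.1 in any library. The 4 CD4 T cell genes, led by *Foxp3*, summed to between 413 and 518 in WT and between 369 and 391 in UTX TCD libraries, and 2 were called lower. For 7 myeloid genes (4 tested), led by *Cd68*, the sums were 707 to 869 and 798 to 1064, with *Csf1r* and *Fcgr3* called lower and *Cd68* itself higher by less than the limit (log2 fold change 0.43, adjusted p = 0.0377 from limma). The 5 dendritic cell genes, led by *Xcr1*, summed to 186 to 218 and 218 to 248, and neither of the 2 that were tested was called by limma. The 4 NK cell genes summed to 13202 to 15386 in WT and 19137 to 26932 in UTX TCD libraries, almost wholly from *Eomes*, and *Eomes* (log2 fold change 0.62) and *Klre1* (2.15) were called higher. *Klrb1c*, the other NK gene tested, went the other way and was not called (log2 fold change -1.18, adjusted p = 0.14 from limma). The 5 stromal or endothelial genes summed to 29955 to 32214 and 34024 to 38332, mostly from *Pecam1*, which was higher by less than the limit (0.22, adjusted p = 0.0114), and *Col1a2* was called higher (0.81). CD8+ T cells also express *Eomes* and *Pecam1*. The defining NK gene *Ncr1* was at most 6.93, and the endothelial gene *Cdh5* was at most 24.8 in WT and listed at 0 in UTX TCD libraries. Of the 4 pancreatic genes, *Ins2* was listed at 0 in every library, and *Prss1* and *Cpa1* had at most 3 reads in any. The part of other cells in the differences of the death receptor genes was not tested.

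The other genes of the pathway were taken from 6 lists with 84 names, of which 83 were in the table and 75 were tested. In limma 6 were called higher and 5 lower, together 14.7% of those tested against 17.6% of all genes. Their median log2 fold change was 0.04, beside -0.0002 over all genes. At any fold, 20 were higher and 16 lower at an adjusted p under 0.05, together 48.0% of the 75 against 40.7% of all genes.

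Among 4 tested death ligands outside the Fas and TRAIL pairs, *Lta* (lymphotoxin α) and *Tnfsf14* (LIGHT) were called higher. *Tnfsf14* had normalized counts of 639.9, 921 and 694 in WT replicates 1, 2 and 3 and of 1008, 1095 and 1174 in UTX TCD replicates 1, 2 and 3, without overlap (log2 fold change 0.55, SE 0.14, adjusted p = 0.0109 from limma). *Lta* was higher in the same way (log2 fold change 0.52, SE 0.09, adjusted p = 0.00228). Both were near the limit: *Tnfsf14* was not called without WT replicate 1 (0.45), nor *Lta* without WT replicate 2 (0.47) or UTX TCD replicate 1 (0.43). *Ltb*, the most abundant ligand of the list, was slightly lower (-0.18, adjusted p = 0.0486). The list's median log2 fold change was 0.41.

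Of 9 tested receptors and decoys, *Tnfrsf25* (death receptor 3) was called higher and *Tnfrsf1b* (TNF receptor 2) and *Tnfrsf26* lower, and the list's median was -0.11. *Tnfrsf1b* had the clearest difference, with normalized counts of 10808, 10874 and 10813 in WT replicates 1, 2 and 3 and of 4202, 4217 and 4814 in UTX TCD replicates 1, 2 and 3. The groups were far apart with little spread within each (log2 fold change -1.30, SE 0.06, adjusted p = 8.43e-07 from limma). *Tnfrsf25* rose from 1909 ± 91.9 to 3559 ± 281 (SD, *n* = 3) (log2 fold change 0.90, adjusted p = 2.6e-05 from limma). *Tnfrsf26* was at the limit (-0.504, adjusted p = 2.31e-05) and was not called without WT replicate 3 (-0.49), without UTX TCD replicate 1 (-0.50) or with libraries scaled to equal sums (-0.44). *Tnfrsf14*, the most abundant receptor of the list, did not pass the test (0.04, adjusted p = 0.697).

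In the 24 adaptors and ubiquitin-linked regulators, *Traf5*, an adaptor of TNF receptor family members, was called lower (log2 fold change -0.62, SE 0.07, adjusted p = 0.000227 from limma). No gene of this list was called higher, and its median was 0.01. *Peli1*, an E3 ligase and the most abundant of the list in WT cells (in UTX TCD cells *Ikbke* was), was lower by less than the limit (-0.28, adjusted p = 0.00402). None of the 14 genes of the caspases and the mitochondrial arm was called by limma, edgeR or DESeq2, and 7 had an unadjusted p under 0.05, against 49.1% of all genes tested. The list's median was 0.03. The most abundant, the caspase substrate *Parp1*, had a log2 fold change of 0.06 (adjusted p = 0.425).

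Of 9 necroptosis and inflammatory death genes, *Mlkl* and *Zbp1* were called higher and none lower, with a list median of 0.16. *Mlkl*, the membrane-disrupting effector of necroptosis, had normalized counts of 57.5, 60.2 and 51.9 in WT replicates 1, 2 and 3 and of 135, 151 and 144 in UTX TCD replicates 1, 2 and 3. These counts were low but well apart (log2 fold change 1.33, SE 0.18, adjusted p = 0.000483 from limma). *Zbp1*, an interferon-induced nucleic acid sensor that can engage RIPK3 and the most abundant of the list, rose from 27947 ± 1969.8 to 47964 ± 6549.6 (SD, *n* = 3; log2 fold change 0.77, adjusted p = 0.000275 from limma).

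Among 15 tested modulators of the Fas pathway, *Daxx* was called higher and *Ptpn13* and *Tnfaip8* lower, with a list median of 0.08. *Ptpn13*, which encodes a phosphatase described as Fas-associated in human cells, had normalized counts of 1528, 1959 and 1471 in WT replicates 1, 2 and 3 and of 484, 527 and 634 in UTX TCD replicates 1, 2 and 3. WT replicate 2 was again the highest, and the groups were far apart (log2 fold change -1.59, SE 0.14, adjusted p = 3.44e-05 from limma). *Daxx*, first described as a Fas-binding protein, was higher at 0.72 (adjusted p = 0.000117), and *Tnfaip8* was lower at -0.76 (adjusted p = 4.66e-05). *Ezr*, which encodes the membrane-to-actin linker ezrin and was the most abundant of the list, was lower by less than the limit (-0.22, adjusted p = 0.00438).

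**Figure D2:**
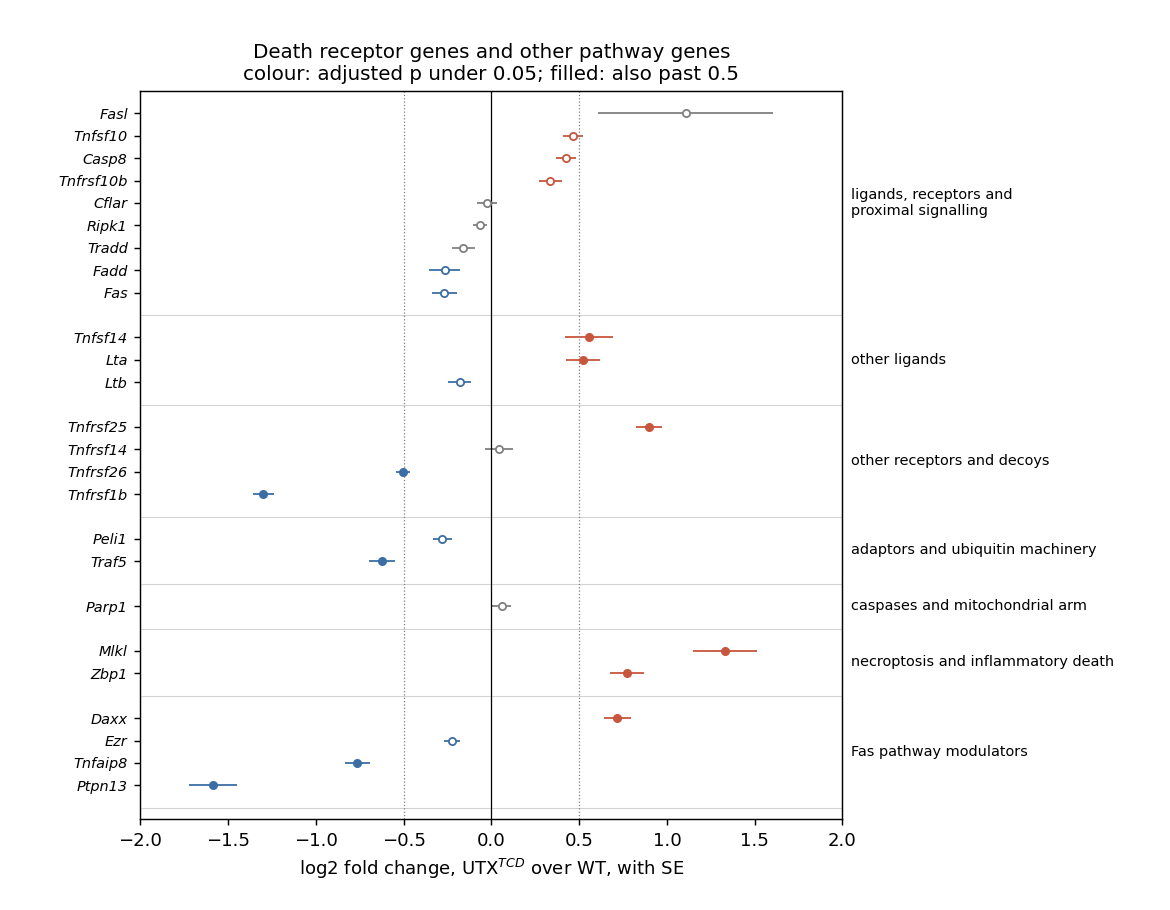
Log2 fold change (horizontal axis, UTX TCD over WT) with its SE from limma for the 9 genes and, from each list of other pathway genes, those called and the most abundant. Red and blue mark an adjusted p under 0.05, filled points also passed 0.5 (dotted lines), and *Mlkl* and *Ptpn13* were the farthest to either side among the filled points.

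ATAC-seq marks open chromatin by the places where a transposase inserts adapters. The deposited table lists only peaks with an FDR under 0.05 in the authors' comparison, so a gene without a listed peak is not a gene without open chromatin. Accessibility is given here as the authors' mean log2 concentration of each genotype, with no values per library and no test. Of the 16 peaks assigned to the 9 genes, 12 had a higher authors' mean in UTX TCD cells, against 68.8% of all listed peaks. The median difference over all listed peaks was 0.49, toward higher values in UTX TCD cells. The median absolute difference between the authors' means was 0.47 for the 16 peaks and 0.71 for all 23932. Of the 16 peaks, 6 differed by more than 0.5, against 73.1% of all listed peaks, so differences at these genes were mostly small. *Fasl* had 6 peaks, *Cflar* and *Casp8* 3 each, *Fas* 2, and *Fadd* and *Tnfrsf10b* 1 each, while none was listed for *Tnfsf10*, *Ripk1* or *Tradd*.

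Both *Fas* peaks were less accessible in UTX TCD cells, as its RNA was lower. The promoter peak (chromosome 19, 34290435 to 34290835) spans the transcription start site and had an authors' mean of 10.68 in WT and 10.44 in UTX TCD cells. The peak in intron 1 of 8 (34293184 to 34293584) had authors' means of 8.56 and 8.07. The differences of -0.24 and -0.48 were small within the table, as only 1.07% and 25.0% of listed peaks differed less.

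Around *Fasl*, 5 peaks were more and 1 was less accessible, beside 68.8% more accessible among all listed peaks, although its RNA was barely counted. The promoter peak (chromosome 1, 161788287 to 161788687) had authors' means of 10.71 in WT and 11.10 in UTX TCD cells. The tallest peak, at 161766599 to 161766999 in an intron of the long noncoding RNA *Gm31869*, had authors' means of 11.14 and 11.53. The *Fasl* promoter was thus among the tall peaks of the table, whose median log2 concentration was 7.83. Peaks at 161794534 to 161794934 and 161809401 to 161809801, upstream of the gene, differed by 0.46 and 0.32. Downstream, the peak at 161693398 to 161693798 had the largest gain (5.33 to 6.32) and lay 94897 bp from the transcription start site, while that at 161744851 to 161745251 was lower (8.17 to 7.66). HOMER assigned these by the nearest start site, and no data here tie them to *Fasl*.

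*Cflar* and *Casp8* together had 6 peaks, all more accessible in UTX TCD cells, a direction shared by 68.8% of all listed peaks. In *Cflar*, peaks in introns 1, 4 and 5 of 8 (chromosome 1, 58721071 to 58721471, 58734476 to 58734876 and 58735932 to 58736332) differed by 0.48, 0.59 and 1.31. The last was low in WT, with an authors' mean of 5.92, and reached 7.23 in UTX TCD cells, a larger difference than in 83.1% of listed peaks. In *Casp8*, the peak in intron 1 (58797311 to 58797711) was tall, with authors' means of 11.10 and 11.56, and that in intron 2 (58806643 to 58807043) had 8.95 and 9.23. A further peak assigned to *Casp8* (58852292 to 58852692, 5.75 to 6.59) lies beyond the end of the gene, within an intron of RefSeq *Gm28802*, and 49990 bp from a start site. Side by side, all *Cflar* peaks were higher while its RNA differed by less than the replicate spread, and for *Casp8* both peaks and RNA were higher. The differences in *Cflar* intron 1 (0.48) and *Casp8* introns 1 and 2 (0.46 and 0.29) were below the median of 0.49 over all listed peaks, and the rest were above it.

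*Fadd* had a promoter peak (chromosome 7, 144582166 to 144582566) that was slightly more accessible (11.13 to 11.44), whereas its RNA was lower. The only peak assigned to *Tnfrsf10b* (chromosome 14, 69757963 to 69758363) lies upstream of the gene, at -9309 bp from the start site and in an intron of the long noncoding RNA *4930480K23Rik*. This low peak, the only member peak with a mean log2 concentration under 5, was less accessible by 1.62 (5.43 to 3.81), a larger difference than in 90.1% of listed peaks, while *Tnfrsf10b* RNA was higher.

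**Figure D3:**
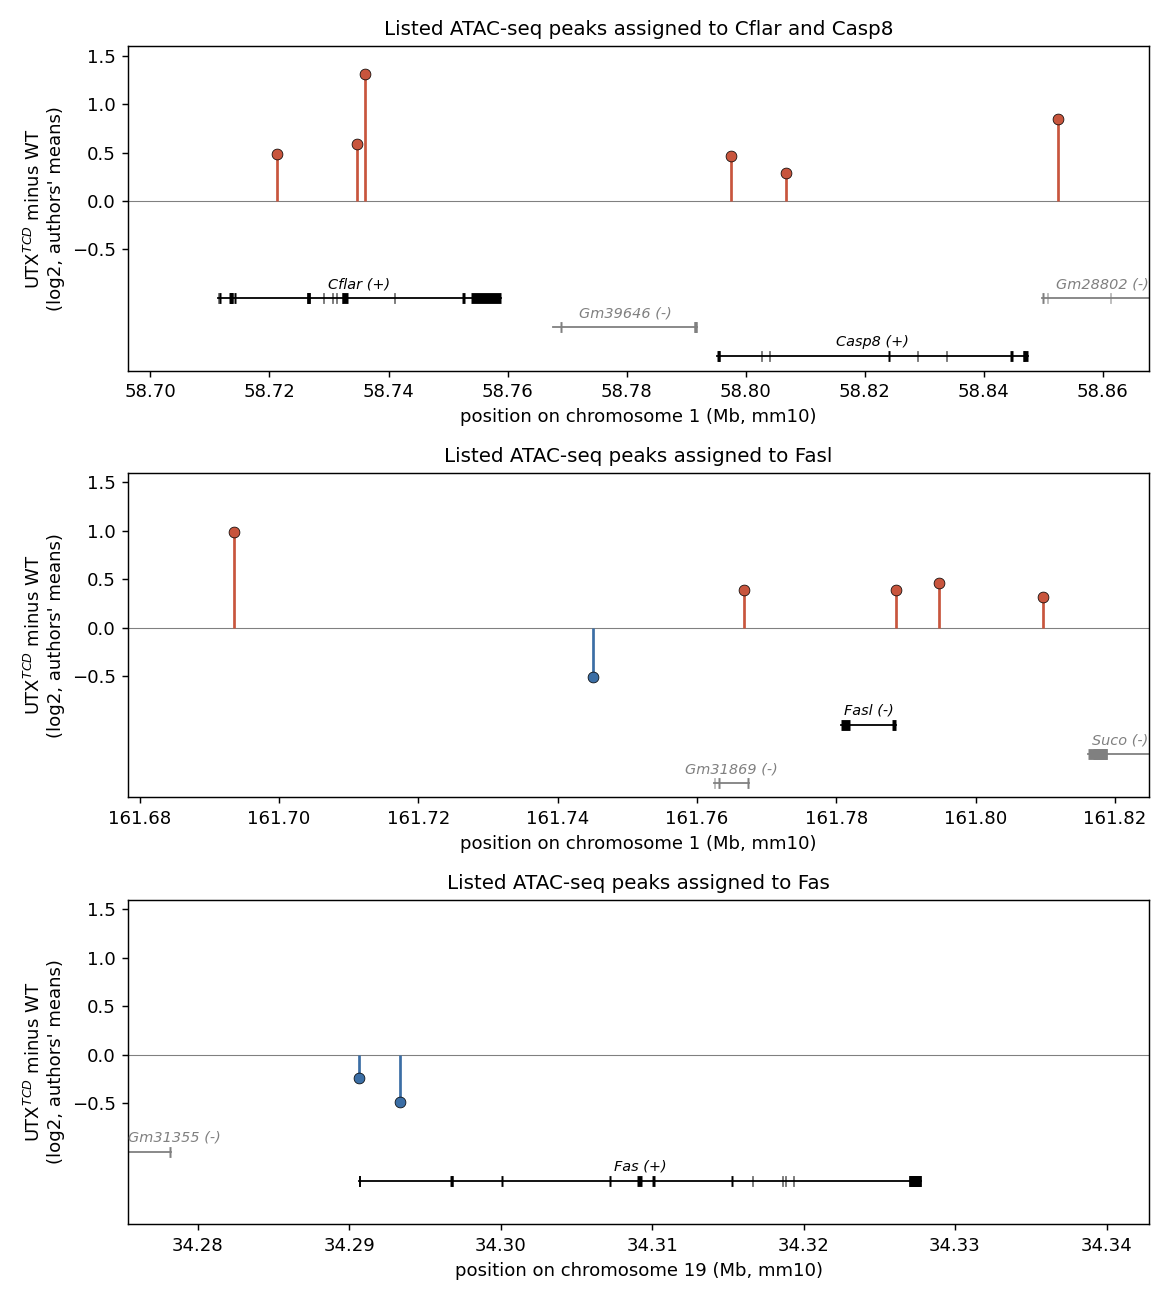
Difference between the authors' mean log2 concentrations (vertical axis, UTX TCD minus WT) of each listed peak by position in mm10 (horizontal axis, Mb), above the RefSeq genes with exons as thick bars and strand in brackets; pseudogenes are not drawn. All 6 peaks of *Cflar* and *Casp8* and 5 of 6 *Fasl* peaks were above 0, and both *Fas* peaks were below it. Of all listed peaks, 68.8% were above 0.

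Peaks of the other called pathway genes also differed in their relation to the RNA. All 6 peaks assigned to *Tnfrsf1b* were less accessible, with differences from -1.22 to -0.51, and both *Mlkl* peaks were more accessible (0.60 and 0.73), each in the direction of the RNA. The single *Ptpn13* peak was more accessible (0.74) although its RNA was lower. *Tnfaip8* had 5 less and 2 more accessible peaks, *Zbp1* 2 less and 1 more accessible, and *Lta* and *Traf5* 1 of each. *Tnfrsf25* (0.32) and *Tnfsf14* (0.37) each had 1 more accessible peak, in the direction of their RNA, and none was listed for *Daxx* or *Tnfrsf26*.

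Sequences of the peaks that stand out are given from the RefSeq genome of GRCm38.p6, which is of the strain C57BL/6J and not NOD. Both strands were searched for 6 short motifs, TGTGGT (RUNX), TTCNNNGAA (STAT), CTTTGAT (TCF/LEF), GGGANTTTC (NF-κB), TGANTCA (AP-1) and GAAANNGAA (interferon response). Matches are in capitals and describe letters only. Promoter windows of 300 bases were in the RefSeq table for 7 of the 9 genes, and of 32851 such windows 16.8% hold the RUNX letters, 8.30% STAT, 3.73% TCF/LEF, 1.11% NF-κB, 7.81% AP-1 and 8.56% interferon response. Of the 201-base centres of 23908 listed peaks on assembled chromosomes, 28.2% hold the RUNX letters, 5.89% STAT, 5.66% TCF/LEF, 0.64% NF-κB, 7.60% AP-1 and 7.35% interferon response.

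The promoters of *Fas* (chr19:34290409-34290708, plus strand) and *Fasl* (chr1:161788446-161788745, minus strand) are shown because peaks there differed in opposite directions. The peaks cover 274 and 242 of their 300 bases. The *Fas* window holds an AP-1 and a STAT match that do not overlap, and the *Fasl* window holds none of the letters.
*Fas* promoter: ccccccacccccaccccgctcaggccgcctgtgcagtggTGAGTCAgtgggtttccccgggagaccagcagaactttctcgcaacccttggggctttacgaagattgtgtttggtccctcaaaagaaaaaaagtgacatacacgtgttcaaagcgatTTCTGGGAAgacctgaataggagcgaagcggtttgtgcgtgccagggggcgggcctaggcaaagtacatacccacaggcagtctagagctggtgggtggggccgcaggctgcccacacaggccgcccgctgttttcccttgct
*Fasl* promoter: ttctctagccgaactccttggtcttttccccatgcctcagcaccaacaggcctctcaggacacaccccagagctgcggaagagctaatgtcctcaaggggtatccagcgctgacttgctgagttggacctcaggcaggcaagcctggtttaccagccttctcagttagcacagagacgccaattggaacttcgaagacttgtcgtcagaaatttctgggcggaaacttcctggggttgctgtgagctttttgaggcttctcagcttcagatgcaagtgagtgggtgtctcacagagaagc

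The centres of the tall *Casp8* intron 1 peak (chr1:58797411-58797611), the *Cflar* intron 5 peak with the largest gain (chr1:58736032-58736232), the *Fas* intron 1 peak (chr19:34293284-34293484) and the less accessible peak near *Tnfrsf10b* (chr14:69758063-69758263) follow, all from the plus strand. The *Casp8* centre holds RUNX letters on each strand and a STAT match, the *Cflar* centre none of the letters, and the *Fas* centre RUNX letters. The *Tnfrsf10b* centre is a tandem repeat in which the RUNX letters, read here on the opposite strand, recur 12 times at a spacing of 16 to 17 bases. No other listed peak centre holds as many.
*Casp8* intron 1: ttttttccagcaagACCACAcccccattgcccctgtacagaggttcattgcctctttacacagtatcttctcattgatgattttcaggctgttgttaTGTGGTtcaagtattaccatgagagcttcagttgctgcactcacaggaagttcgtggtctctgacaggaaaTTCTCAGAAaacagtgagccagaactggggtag
*Cflar* intron 5: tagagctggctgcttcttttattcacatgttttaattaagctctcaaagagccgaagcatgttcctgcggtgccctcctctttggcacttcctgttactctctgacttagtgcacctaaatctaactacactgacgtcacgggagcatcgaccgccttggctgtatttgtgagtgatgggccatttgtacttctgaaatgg
*Fas* intron 1: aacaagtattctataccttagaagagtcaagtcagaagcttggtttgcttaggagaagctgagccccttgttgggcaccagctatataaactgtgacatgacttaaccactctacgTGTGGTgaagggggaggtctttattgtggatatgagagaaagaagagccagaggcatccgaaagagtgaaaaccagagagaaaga
Near *Tnfrsf10b*: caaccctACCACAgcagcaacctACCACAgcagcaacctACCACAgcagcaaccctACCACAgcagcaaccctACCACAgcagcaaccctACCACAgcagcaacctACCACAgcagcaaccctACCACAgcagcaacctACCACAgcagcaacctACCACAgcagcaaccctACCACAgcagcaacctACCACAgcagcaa

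Over the whole 401 bases, 10 of the 16 peaks hold the RUNX letters, against 39.7% of listed peaks. These 10 include the tandem repeat near *Tnfrsf10b*, and a difference in the shares was not tested. AP-1 letters are in 4 (12.8% of listed peaks), STAT in 3 (11.9%), TCF/LEF in 3 (9.01%), interferon response letters in 1 (13.6%) and NF-κB letters in 0 (1.41%). Each *Fas* peak holds RUNX letters, and 2 of the 3 *Casp8* peaks hold STAT letters.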

How the data were processed

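The authors aligned RNA-seq reads to mm10 with HISAT2 2.2.1, counted them per gene with featureCounts and deposited the counts divided by DESeq2 size factors as a signal per gene and library. All values were whole multiples of a step per library (within 0.01), so reads were recovered for 100% of them. ATAC-seq peaks were called by the authors with MACS2, compared with DiffBind and annotated with HOMER, and the deposited log2 concentrations are means per genotype. The deposited FDR p-value column was read only to test that no listed peak was at or over 0.05. The authors' comparison columns (log2 fold changes, their errors, p-values) were not used. Gene annotation, strand setting and any transposase shift are not stated.

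Values were tested with limma 3.58.1 (lmFit, eBayes with trend; R 4.3.3) on log2(normalized count + 1) in a model of genotype alone, with Benjamini-Hochberg adjustment of p-values over all genes tested. edgeR 4.0.16 (quasi-likelihood) and DESeq2 1.42.0 on recovered reads were alternatives and called 2541 and 2422 genes, beside 2538 by limma, whose test on log values was retained. The fits were tested on simulated data. Genes named are the 9 members, in each list the called genes (up to 4 per direction) and the most abundant, *Kdm6a*, markers, and the 5 genes most like *Fas*. Neighbouring genes that overlap or lie beside a member or its peaks are also named. The members and lists were chosen with earlier results of these data known. Exon lengths, neighbours and sequences are from RefSeq GRCm38.p6. A floor of 3 reads corresponds to normalized counts of 2.21 to 6.75, which covers counting error only.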

Additional observations from a re-analysis of the deposited data

How the results depend on the processing

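Fits were repeated with other pseudocounts, low-count filters, library scalings, tests and fold limits, with a replicate block, and without each library in turn. All 15 alternatives kept the sign of the log2 fold change of every death receptor gene except *Cflar*, which was 0.0388 under equal-sum scaling and, as single libraries were dropped, lay between -0.0808 and 0.0184; *Fasl* could not be fitted with a mean of at least 50. Under equal-sum scaling, 1 of the 9 genes was called (*Tnfsf10*) in place of 0, and 3 in place of 5 were at an adjusted p under 0.05, as *Fas* and *Fadd* did not pass; this scaling moved the median log2 fold change of all genes to 0.06. Dropping libraries, 0 to 1 of the 9 genes were called and 4 to 5 passed the test. The count of all genes called ranged from 2065 to 2755 beside 2538, and that of other pathway genes from 8 to 14 beside 11. The *Cflar* to *Casp8* log2 difference ranged from -0.48 to -0.43. Of the 16 peaks, 6 differed by more than 0.5, against 73.1% of all listed peaks, 15 lay within 50 kb of a start site, and 15 had a mean log2 concentration of at least 5, all but that of *Tnfrsf10b*. Same-numbered libraries did not deviate together (r = 0.31, -0.20 and 0.09), so the numbers were not taken as pairs, and not every library correlated best with its own number. With the replicate block, 2474 genes were called in all, none of the 9 genes was called (0), 5 passed the test, and 11 other pathway genes were called.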
